A study of Homo sapiens with 12 samples.

Results

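Interferon-stimulated effector genes encode the proteins that carry out the antiviral program of a cell after it has sensed interferon. Here 57 such genes were followed in tumor-associated macrophages (TAMs), chosen by gene name from the 58735 genes of the deposited count table and excluding the IFIT, OAS, GBP, APOBEC3, sensor, IRF and chemokine families. All 57 were in the table, and 56 of them passed the filter on low counts. IFI27, with 4 to 15 counts in each of the 12 libraries, did not pass and was not tested.

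Type I interferon binds a receptor made of IFNAR1 and IFNAR2, and kinases at the receptor then activate transcription factors inside the cell. These bind the interferon-stimulated response element (ISRE) in the promoters of their target genes. The targets include nucleotide enzymes that starve viral polymerases, GTPases that trap viral particles, the ubiquitin-like modifier ISG15 with its enzymes, and ligands of the TNF family. Macrophages keep a basal level of many of these transcripts without infection.

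The TAMs were THP-1 cells, a human monocytic leukemia line, differentiated with PMA. They then shared medium, through a Transwell insert, with cells of the human pancreatic cancer line AsPC-1. In the control group (labelled NC) the AsPC-1 cells carried the empty vector. In the OE-MMP28 group they overexpressed the metalloproteinase MMP28 from a lentivirus. In the other two groups the same OE-MMP28 coculture also received a neutralizing antibody, anti-IL-8 or anti-VEGFA, and no group is named for a control antibody. Each group held 3 libraries of RNA from the TAMs, so each comparison rests on 1 monocytic line and 1 cancer line. The labels do not say whether replicates were separate cultures, and p-values then measure only the spread between these libraries.

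Library totals lay between 15852346 and 18701195 counts, and mitochondrial genes took 6.92% to 17.8% of them, the highest share being in anti-VEGFA replicate 2. MMP28 had 0 counts in all 12 libraries, as the vector was in the AsPC-1 cells and not in the sequenced TAMs, so the overexpression cannot be checked here. Of 12 macrophage markers, 11 had more than 3 counts in every library, and CD68, of whose exonic bases 85.8% are shared with other annotated genes, was the exception. Their summed level was 2430 to 2640 CPM in control, 2640 to 3850 in OE-MMP28, 3180 to 3940 with anti-IL-8 and 3040 to 3260 with anti-VEGFA. Most of the difference between control and OE-MMP28 was CD14, with means of 752 CPM in control and 1310 in OE-MMP28. The means of ITGAM, CSF1R and MSR1 were lower in OE-MMP28, and the other markers of the list rose by fewer CPM than CD14. A list of 6 markers of monocytes or undifferentiated THP-1 cells, 4 of them over 3 counts everywhere, summed to 55.4 to 59.8 CPM in control, 53.3 to 102 in OE-MMP28, 90 to 99.8 with anti-IL-8 and 77 to 100 with anti-VEGFA. The part of either list in the results was not tested. The summed level of 10 AsPC-1 markers was 4.68 to 5.57 CPM in control, 2.28 to 3.50 in OE-MMP28, 3.50 to 4.76 with anti-IL-8 and 4.16 to 4.44 with anti-VEGFA, and EPCAM, the defining epithelial marker, had 0 counts throughout. CPM are counts relative to the TMM-scaled library total, and they compare libraries but not genes of different length. The sum of the AsPC-1 list, of which 2 of 10 genes had more than 3 counts in every library, was lower in OE-MMP28. Most of that sum was MUC1, with means of 3.62 CPM in control and 1.80 in OE-MMP28. KRT18, KRT19 and LCN2, with very few counts, went the other way. The part of this list in the results was not tested. A list of 4 plasmacytoid dendritic cell markers, cells known for interferon output, summed to 42.8 to 47.5 CPM in control and 35.6 to 37.8 in OE-MMP28, nearly all of it TCF4 and IL3RA, and its defining marker CLEC4C had 0 counts throughout.

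The promoters of the members were examined first, since the ISRE is the sequence through which these genes are known to respond. The RefSeq promoter table (GRCh38.p14, 250 bases before to 50 after a transcription start) listed 47 of the 57 members. The ISRE core was searched as GAAANNGAAA on both strands, which reads TTTCNNTTTC when it lies on the opposite strand. It was found in 28 of the 47 members (59.6%) and in 4.38% of all 27305 genes listed. The longer form GAAANNGAAACT, every match of which also holds the core, was found in 13 members (27.7%) against 0.322% of all genes. The GAS element, TTCNNNGAA, which interferon gamma is known to use, was found in 11 members (23.4%) against 9.38% of all genes. These matches describe letters in a window and not bound sites.

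The stretches printed here show the ISRE core, in capitals, each 5′ to 3′ on the strand of its gene. They lie upstream of a listed start. The stretches of RSAD2, IFI44L, MX1, ISG20, ISG15 and DDX60L lie inside the annotated span of their own gene. Members were chosen among those with an upstream match. They are some that fell most, the 2 most abundant and a pair of neighbouring paralogs. Where the match lay in an annotated exon, only the match and its immediate flank are given. The first set holds members with a fall of over 8-fold in OE-MMP28, but not all of them. CMPK2 and XAF1 had no match, and MX2, TRIM22 and SIGLEC1 had no listed promoter. TNFSF13B, with an upstream match, is not printed.
RSAD2 (chr2:6877572-6877664, plus strand): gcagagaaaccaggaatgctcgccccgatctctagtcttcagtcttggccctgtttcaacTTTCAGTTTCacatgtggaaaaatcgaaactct
IFI44L (chr1:78620224-78620333, plus strand): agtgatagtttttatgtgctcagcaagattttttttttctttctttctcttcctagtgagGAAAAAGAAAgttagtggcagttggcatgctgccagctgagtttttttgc
MX1 (chr21:41431844-41431873, plus strand): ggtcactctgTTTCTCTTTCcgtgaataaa
HERC5 (chr4:88456934-88457094, plus strand): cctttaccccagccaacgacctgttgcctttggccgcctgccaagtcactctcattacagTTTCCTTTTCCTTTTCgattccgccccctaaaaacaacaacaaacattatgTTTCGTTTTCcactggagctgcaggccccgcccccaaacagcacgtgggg
TNFSF10 (chr3:172523568-172523677, minus strand): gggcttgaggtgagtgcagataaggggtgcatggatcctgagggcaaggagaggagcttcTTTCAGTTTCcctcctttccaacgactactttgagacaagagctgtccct
IFI44 (chr1:78649711-78649788, plus strand): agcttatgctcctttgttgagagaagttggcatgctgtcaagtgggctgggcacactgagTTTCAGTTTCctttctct
ISG20 (chr15:88638937-88638966, plus strand): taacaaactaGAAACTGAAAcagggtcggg
ISG15 (chr1:1013324-1013422, plus strand): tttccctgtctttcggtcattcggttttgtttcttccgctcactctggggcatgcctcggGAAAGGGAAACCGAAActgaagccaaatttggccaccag

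In the stretches as printed, HERC5 shows 3 matches, of which a pair overlaps, and ISG15 shows an overlapping pair. Matches outside a printed stretch are not shown, so the printed matches do not count all matches of a member. IFI44L has another upstream match, with its first base at -73 from the start. MX1 has another match at 11, just after another listed start. IFI6 and BST2, the most abundant members, hold matches too, and their falls in OE-MMP28 were among the smaller ones.
IFI6 (chr1:27672236-27672408, minus strand): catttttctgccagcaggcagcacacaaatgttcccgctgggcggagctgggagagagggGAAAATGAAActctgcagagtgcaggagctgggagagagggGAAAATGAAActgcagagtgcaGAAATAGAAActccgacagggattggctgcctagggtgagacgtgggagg
BST2 (chr19:17405735-17405764, minus strand): ctggGAAACTGAAACTGAAAacctaattaa
The paralogs DDX60 and DDX60L lie 37927 bases apart on chromosome 4, on the same strand. DDX60 holds another upstream match outside its printed stretch, with its first base at -53 from the start.
DDX60 (chr4:168318808-168318900, minus strand): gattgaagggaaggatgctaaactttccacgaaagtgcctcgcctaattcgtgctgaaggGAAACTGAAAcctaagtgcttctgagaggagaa
DDX60L (chr4:168480515-168480632, minus strand): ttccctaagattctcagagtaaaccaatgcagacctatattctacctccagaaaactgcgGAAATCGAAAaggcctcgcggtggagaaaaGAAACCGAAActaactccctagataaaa

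The first comparison asked how TAMs cocultured with MMP28-overexpressing cells differed from TAMs cocultured with vector cells. Of the 56 members tested, 55 were lower in OE-MMP28 at an adjusted p of 0.05 and none was higher, while 2.64% of all 16046 genes tested were lower. The control and OE-MMP28 libraries of 55 members did not overlap, which was so, in the lower direction, for 11.6% of all genes. The median log2 fold change of the members was -2.09, with a range from -5.25 to -0.45, beside 0.02 over all genes. The fall was over 10-fold in 10 members, from 5- to 10-fold in 13, from 2- to 5-fold in 24 and under 2-fold in 9. Together the members took 0.739% to 0.985% of all counts in the control libraries and 0.229% to 0.274% in the OE-MMP28 libraries. SP140 was the member that was not called. In bulk RNA, fewer cells of a type and less RNA per cell cannot be told apart.

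**Figure D1:**
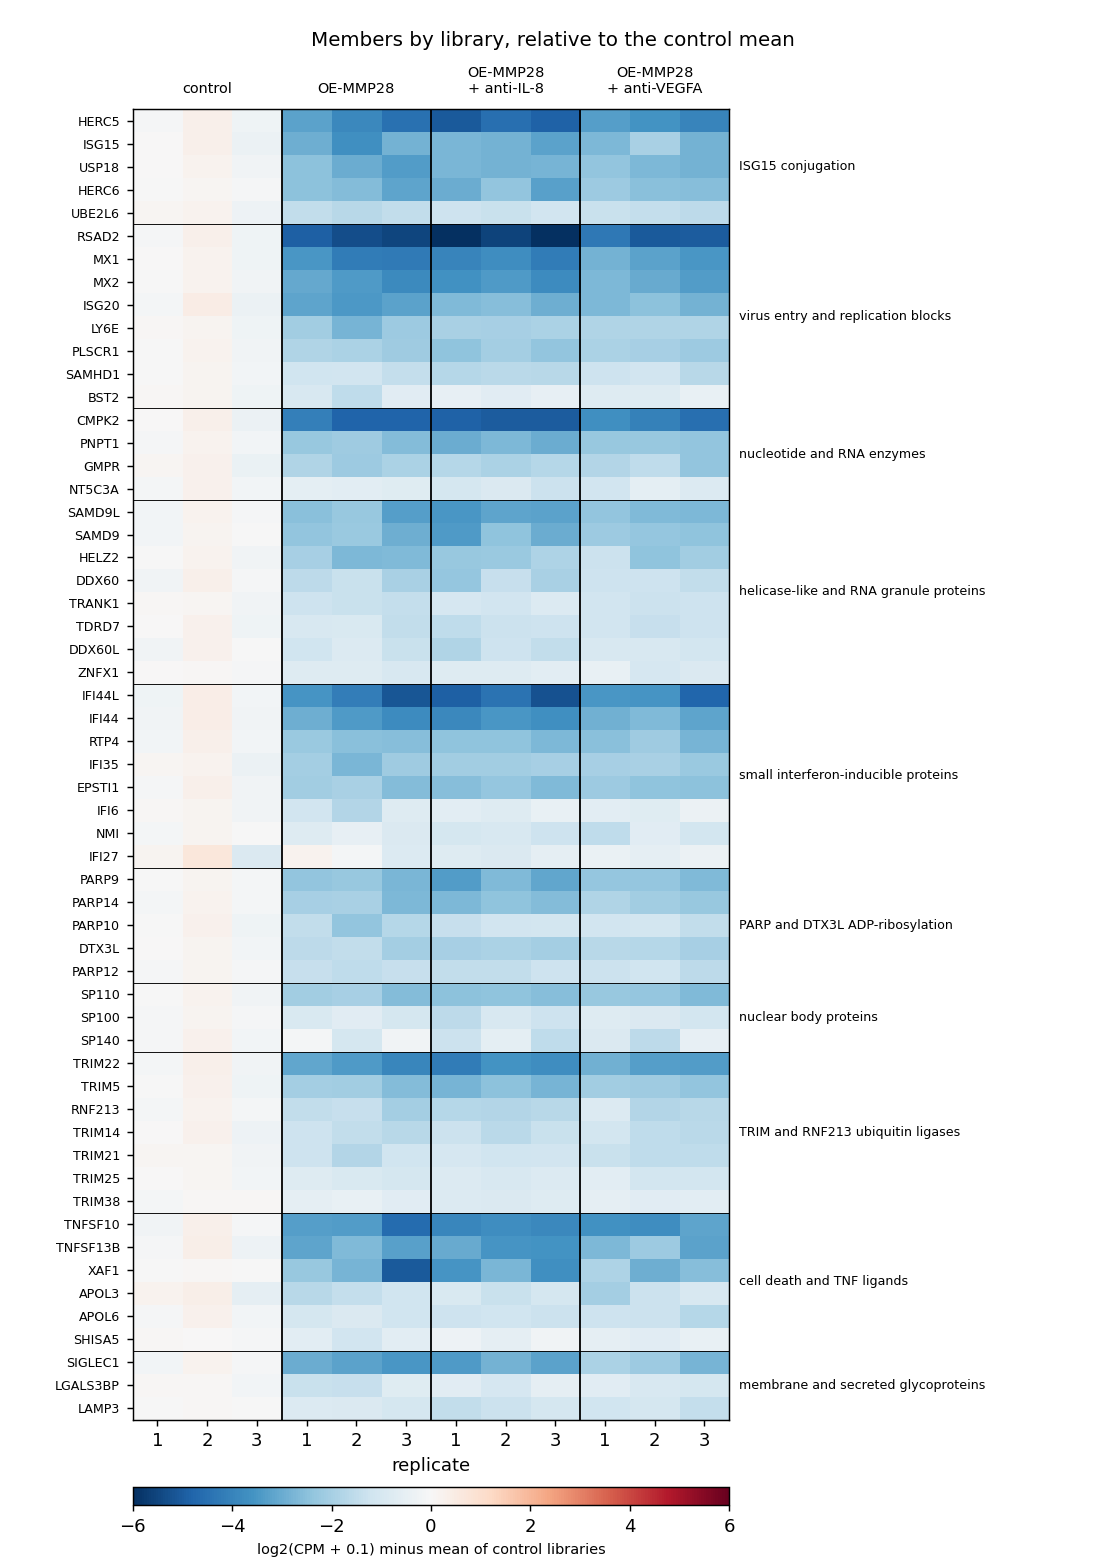
Level of each of the 57 members (rows, grouped by role) in each of the 12 libraries (columns), as log2(CPM + 0.1) minus the mean of the 3 control libraries, blue for lower. The OE-MMP28 columns and both antibody columns are blue for nearly all members, deepest for RSAD2, CMPK2, IFI44L, MX1 and HERC5, and pale for SP140, TRIM38 and NT5C3A.

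The control libraries were not alike. Control replicate 2 held the highest control value of 55 of the 56 members, and control replicate 3 held the lowest of 41. Without control replicate 2, 51 members were lower in OE-MMP28, and the median log2 fold change was -1.95. The members then no longer called were APOL3, NMI, NT5C3A and TRIM38, all of which fell by less than 3-fold with every library in. Control libraries stand in one arm of this comparison and of both comparisons of antibody groups with control, so a batch of the control cultures and the MMP28 coculture cannot be told apart.

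Among the blocks to virus entry and replication, all 8 members were lower, with a median log2 fold change of -2.84. RSAD2 encodes viperin, which makes a nucleotide that ends viral RNA chains. It stood at 162, 212 and 144 CPM in the control libraries and at 5.66, 4.21 and 3.68 in OE-MMP28, the largest fall of any member (log2 fold change -5.25, SE 0.25, adjusted p 5.48e-10). MX1 and MX2 are dynamin-like GTPases that trap incoming viral particles, and their genes lie 10913 bases apart on chromosome 21. MX1 stood at 387, 444 and 316 CPM in control and at 33.2, 20.8 and 19.98 in OE-MMP28 (-3.95, SE 0.22, 1.51e-09). MX2 went from 257, 301 and 228 CPM to 30.9, 24.5 and 18.1 (-3.42, SE 0.20, 3.80e-09). The exonuclease ISG20, which degrades single-stranded RNA, went from 31.0, 47.1 and 27.0 CPM to 3.68, 2.98 and 3.62 (-3.35, SE 0.21, 8.80e-09). In all 4 of these the lowest control library exceeded the highest OE-MMP28 library by a wide margin. The other members of the group were LY6E, which restricts coronavirus entry (-2.34, SE 0.16), PLSCR1, a phospholipid scramblase (-1.96, SE 0.15), SAMHD1, which hydrolyses deoxynucleotides (-1.27, SE 0.14), and BST2, or tetherin, which holds budding virions at the membrane (-1.01, SE 0.18).

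ISG15 is attached to other proteins by a cascade of enzymes, and 5 of 5 members of that group were lower. ISG15 itself went from 279, 335 and 212 CPM to 35.8, 21.2 and 38.3 (log2 fold change -3.12, SE 0.25, adjusted p 1.61e-07). HERC5, the main ligase that attaches ISG15 in human cells, went from 81.0, 104 and 70.3 CPM to 9.02, 5.61 and 3.62 (-3.80, SE 0.26, 1.73e-08). Its neighbour HERC6, 14005 bases away, went from 43.6, 49.1 and 42.2 CPM to 8.14, 7.31 and 4.93 (-2.72, SE 0.21, 8.98e-08). USP18 removes ISG15 and also restrains the interferon receptor. It went from 112, 126 and 93.4 CPM to 19.9, 14.0 and 10.6 (-2.89, SE 0.20, 1.69e-08). UBE2L6, the conjugating enzyme between the activating enzyme and HERC5, fell least of the group (-1.55, SE 0.14, 5.25e-07). For each of the 5, every control library was above every OE-MMP28 library.

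All 4 enzymes of nucleotide and RNA metabolism were lower. CMPK2, a mitochondrial kinase that phosphorylates CMP and UMP, went from 163, 195 and 124 CPM to 8.96, 5.497 and 5.493 (log2 fold change -4.59, SE 0.24, adjusted p 1.08e-09), the second-largest fall. CMPK2 and RSAD2 are divergent neighbours on chromosome 2 whose annotated spans overlap, with 14 bases exonic in both. PNPT1, the mitochondrial polynucleotide phosphorylase, had -2.33 (SE 0.15), and GMPR, which reduces GMP to IMP, had -2.00 (SE 0.22). NT5C3A, a pyrimidine nucleotidase, had the weakest call of all (-0.65, SE 0.17, 0.0376), and that call did not hold when any 1 control or OE-MMP28 library was left out, nor without anti-IL-8 replicate 1 or 3 or anti-VEGFA replicate 3.

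Of the small interferon-inducible proteins, 7 of 7 tested were lower. IFI44L and IFI44 lie 3650 bases apart on chromosome 1, and their roles are less well defined. IFI44L, at 15.3, 24.7 and 16.6 CPM in control, was at 1.48, 0.936 and 0.437 in OE-MMP28 (log2 fold change -4.28, SE 0.35, adjusted p 1.61e-07). IFI44, at 63.1, 96.2 and 63.5 CPM in control, was at 9.35, 6.84 and 5.18 (-3.38, SE 0.22, 1.03e-08). The chaperone RTP4 went from 13.7, 19.2 and 13.9 CPM to 3.19, 2.63 and 2.56 (-2.48, SE 0.21, 2.97e-07). All 3 were separated completely between the groups. IFI35, which pairs with NMI, had -2.29 (SE 0.18) and NMI had -0.71 (SE 0.17, 0.0284). NMI was no longer called when any control library, OE-MMP28 replicate 1 or 3, or anti-VEGFA replicate 3 was left out. IFI6, an antiapoptotic protein and the most abundant member by count, stood at 1018, 1083 and 831 CPM in control and 436, 289 and 559 in OE-MMP28 (-1.19, SE 0.19, 8.59e-04). IFI27 lay between 0.237 and 0.866 CPM in control and between 0.2497 and 0.6047 in OE-MMP28, which overlap.

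**Figure D2:**
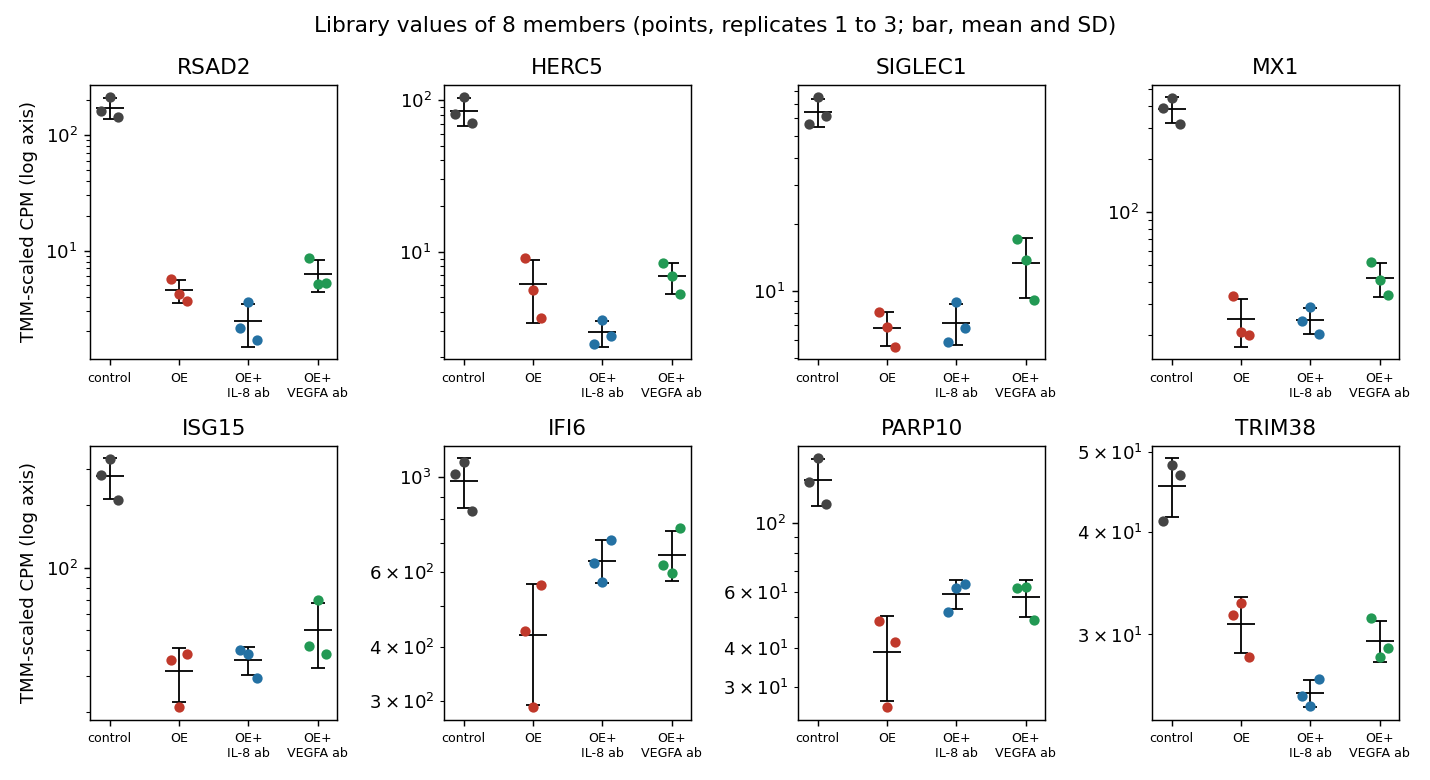
Values of 8 members in each library, as TMM-scaled CPM on a log axis, with points for replicates 1 to 3 and a bar for the mean and SD of each group (OE, OE-MMP28; ab, antibody). RSAD2, HERC5, SIGLEC1, MX1 and ISG15 stand far above the other groups in control, IFI6, PARP10 and TRIM38 less so.

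The ADP-ribosyltransferases of the PARP family and DTX3L, the partner of PARP9, were lower in 5 of 5. PARP9 went from 248, 284 and 230 CPM to 49.5, 51.8 and 38.0 (log2 fold change -2.45, SE 0.18, adjusted p 3.96e-08), and DTX3L, a divergent neighbour that shares 217 exonic bases with it, had -1.70 (SE 0.15). PARP14, PARP10 and PARP12 had -2.19 (SE 0.18), -1.82 (SE 0.19) and -1.43 (SE 0.13). Helicase-like and RNA granule proteins were lower in 8 of 8. SAMD9 and SAMD9L, restriction factors that act on poxvirus replication, lie 12031 bases apart on chromosome 7. SAMD9L went from 97.6, 127 and 105 CPM to 19.0, 22.5 and 10.9 (-2.65, SE 0.20, 9.27e-08). SAMD9 went from 127, 159 and 137 CPM to 27.2, 29.6 and 18.2 (-2.49, SE 0.21, 3.10e-07). The pair thus fell alike, within 1 SE of each other. DDX60, an RNA helicase-like protein, went from 47.5, 67.7 and 52.2 CPM to 18.4, 21.7 and 14.1 (-1.63, SE 0.20, 4.81e-05). DDX60L went from 169, 234 and 197 CPM to 87.1, 112 and 78.3 (-1.11, SE 0.16, 2.55e-04). Reads of such paralogs can be split between copies, and the size of each fall is uncertain to that extent. The remaining 4 members of the group ranged from -2.43 for HELZ2, a helicase-like coactivator, to -0.83 for ZNFX1, an RNA-binding helicase.

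Ubiquitin ligases of the TRIM family and RNF213 were lower in 7 of 7. TRIM22, which restricts several viruses, went from 185, 243 and 172 CPM to 22.9, 18.6 and 13.1 (log2 fold change -3.45, SE 0.21, adjusted p 5.39e-09), far more than the next of the group. TRIM22 shares 10.7% of its exonic bases with a neighbouring olfactory receptor gene. TRIM5, which recognises retroviral capsids, had -2.23 (SE 0.18), and RNF213 had -1.61 (SE 0.22). TRIM14 had -1.48 (SE 0.17), TRIM21, a cytosolic antibody receptor, had -1.40 (SE 0.15), and TRIM25, which ubiquitylates RIG-I, had -0.91 (SE 0.14). TRIM38 fell least (-0.56, SE 0.12, 0.0131) and was no longer called without control replicate 2 or 3 or OE-MMP28 replicate 1 or 3. Of the nuclear body proteins, 2 of 3 were lower. SP110, of whose exonic bases 20.9% are shared with other genes, went from 108, 127 and 95.3 CPM to 25.4, 27.4 and 17.9 (-2.22, SE 0.16, 5.35e-08). SP100 went from 123, 146 and 125 CPM to 69.9, 82.9 and 62.4 (-0.87, SE 0.15, 0.00185). SP140, at 0.885, 1.16 and 0.829 CPM in control and 0.880, 0.409 and 0.811 in OE-MMP28, overlapped between the groups (-0.45, SE 0.44, 0.704). At 7 to 20 counts in each of these libraries, the 95% interval of the log2 fold change ran from -1.46 to 0.57, which holds both no change and a fall of over 2-fold.

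Ligands and cell death proteins were lower in 6 of 6. TNFSF10, or TRAIL, induces apoptosis through death receptors. It went from 32.6, 46.5 and 35.6 CPM to 3.79, 3.57 and 1.44 (log2 fold change -3.69, SE 0.26, adjusted p 2.06e-08). TNFSF13B, or BAFF, supports the survival of B cells. It went from 23.8, 32.6 and 20.7 CPM to 2.75, 3.92 and 2.56 (-3.06, SE 0.26, 2.60e-07). XAF1 antagonises an inhibitor of apoptosis, and went from 13.2, 14.2 and 13.4 CPM to 2.69, 1.87 and 0.312 (-3.04, SE 0.40, 7.39e-05), with OE-MMP28 replicate 3 far below the other libraries of its group. Of the exonic bases of XAF1, 38.3% are shared with an antisense gene, and the kit does not mark strand. The apolipoproteins APOL3 and APOL6 had -1.53 (SE 0.31) and -1.05 (SE 0.15), and SHISA5 had -0.77 (SE 0.15). APOL3 lost its call without OE-MMP28 replicate 1 as well as without control replicate 2. The 3 membrane and secreted glycoproteins were lower. SIGLEC1, the macrophage lectin CD169 that binds sialic acid, went from 56.4, 74.7 and 61.6 CPM to 8.03, 6.90 and 5.62 (-3.23, SE 0.22, 1.69e-08). LGALS3BP, a galectin-binding glycoprotein, and LAMP3, a lysosomal membrane protein, had -1.13 (SE 0.18) and -0.92 (SE 0.16).

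**Figure D3:**
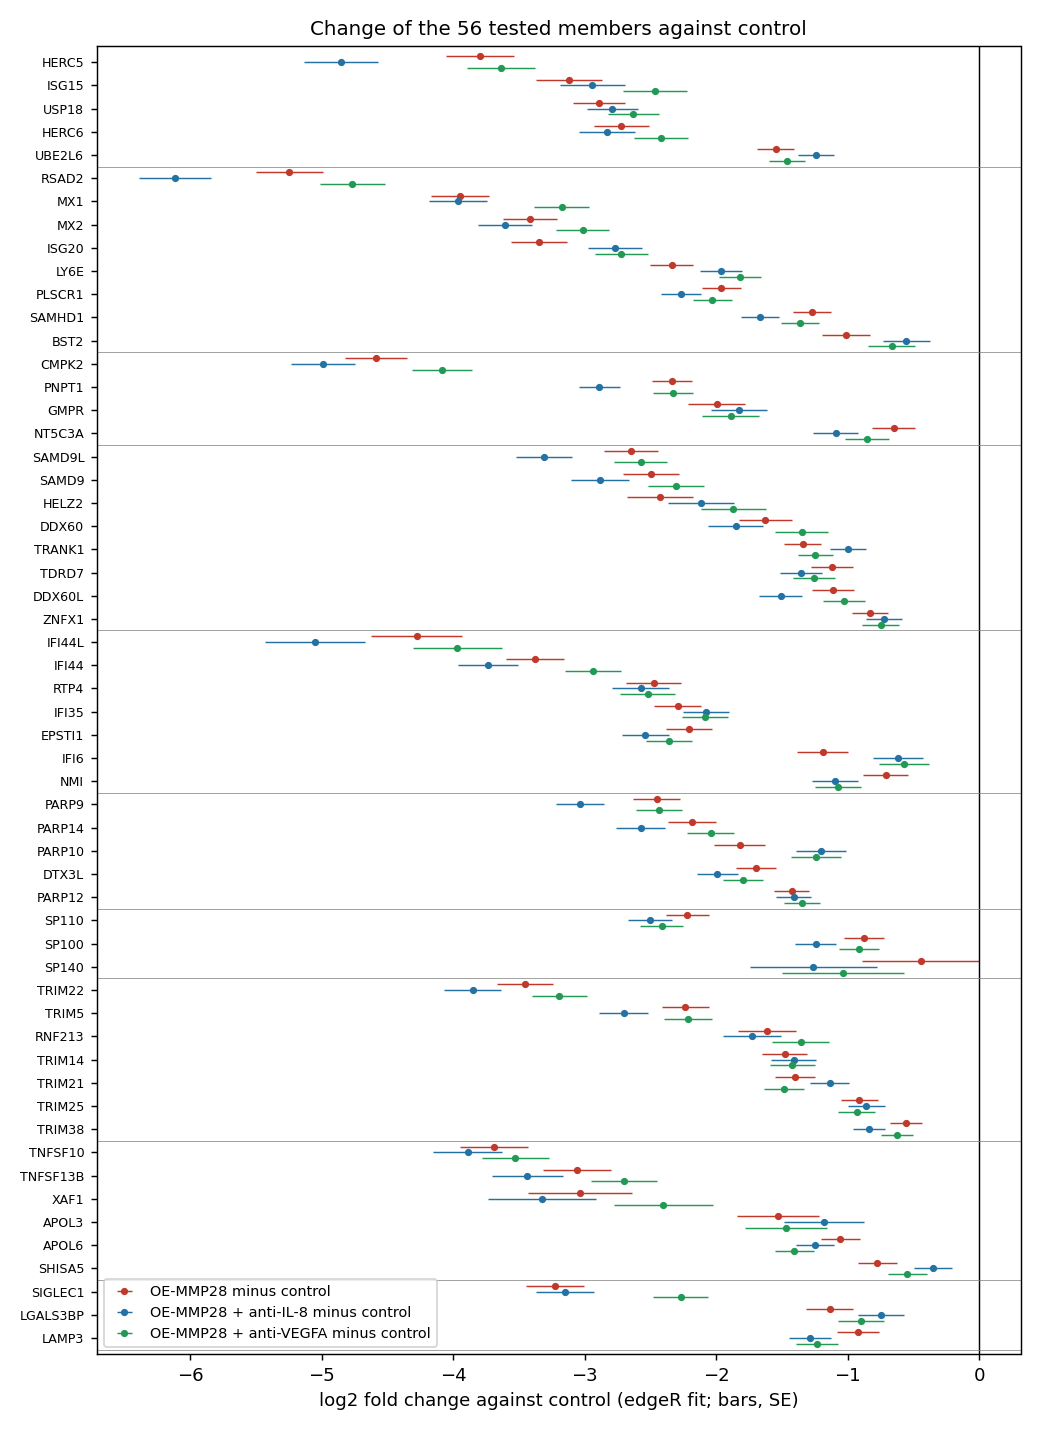
Log2 fold change of the 56 tested members (rows, grouped by role) against control in OE-MMP28 (red), under anti-IL-8 (blue) and under anti-VEGFA (green), with the SE of the edgeR fit as bars. All points lie below 0, and the 3 groups share the same control libraries.

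Levels between genes were compared on the deposited FPKM, which are scaled to gene length. In control, IFI6 led at 1116 ± 154 FPKM (mean ± SD, n = 3), ahead of BST2 at 357 ± 54.8 and ISG15 at 289 ± 65.9. RSAD2 was fourteenth at 35.2 ± 7.28, and the other members ranged down to IFI27 at 0.135 ± 0.0755. In OE-MMP28, IFI6 was at 489 ± 154 and BST2 at 177 ± 51.0, while ISG15 was at 33.4 ± 9.71 and RSAD2 at 0.924 ± 0.212. Thus IFI6 and BST2 took a larger share of the members' counts, 17.2% and 8.05% in OE-MMP28 against 11.8% and 4.88% in control. The level in control and the size of the fall were only loosely related (Pearson's r -0.10 and Spearman's rho -0.15 over 56 members, which share libraries). Tested members with an ISRE core match in the listed promoter (27) had a median log2 fold change of -2.21, those without a match (19) -1.61, and those with no listed promoter (10) -2.08. The groups overlapped widely, since CMPK2, with no match, fell second most and NMI, with a match, had -0.71.

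**Figure D4:**
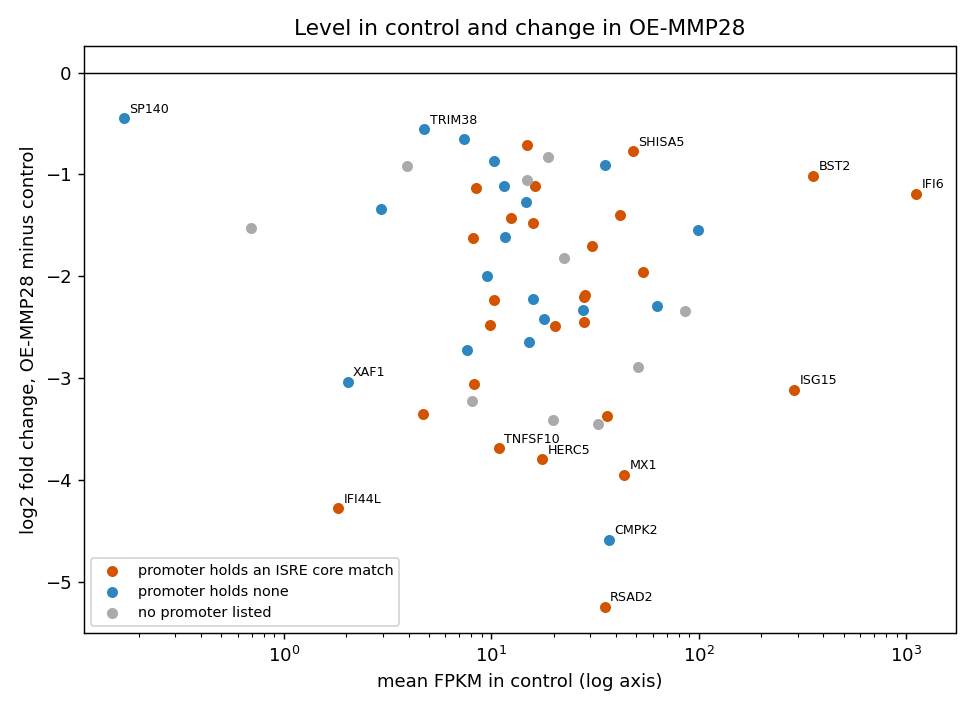
Mean FPKM in control (horizontal, log axis) against the log2 fold change of OE-MMP28 minus control (vertical) for the 56 tested members, with color for the ISRE core in the listed RefSeq promoter. RSAD2, CMPK2, IFI44L and MX1 lie lowest, the abundant IFI6 and BST2 near -1, and the colors are mixed.

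A list of 61 other genes of the interferon pathway was taken whole, and was drawn up with earlier results of these data known. Of these, 52 were tested. At the adjusted threshold 32 were lower in OE-MMP28 and none higher, where 2.64% of all genes were lower. Transcripts of the interferons named here were few or undetected. IFNB1 averaged 0.49 CPM in control and 0.129 in OE-MMP28 and did not pass the filter, and IFNA1, IFNE and IFNG had 0 counts in both groups, where 3 counts correspond to at most 0.189 CPM. The receptor chains IFNAR1 (log2 fold change 0.04, SE 0.13) and IFNAR2 (0.01, SE 0.25) were not called. Among transcription factors of the list, STAT2 had -1.41 (SE 0.14, adjusted p 3.60e-06) and IRF9 -0.90 (SE 0.21, 0.0181). Of the other IRF genes listed, IRF7 (-1.65, SE 0.20) and IRF1 (-0.80, SE 0.15) were lower, and IRF2 (-0.21, SE 0.11), IRF3 (0.10, SE 0.17), IRF5 (-0.20, SE 0.11) and IRF8 (-0.38, SE 0.15) were not called. Against OE-MMP28 none of the 52 was called with either antibody, and none between the antibodies. Of all genes, 0% were called for anti-IL-8, 0.343% for anti-VEGFA and 0.199% between the antibodies. Against control, 34 were lower and 1 higher with anti-IL-8, where 10.9% and 9.77% of all genes were. With anti-VEGFA 33 were lower, where 5.37% of all genes were.

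The second comparison asked whether IL-8 neutralization changed the TAMs of the OE-MMP28 coculture. No member passed the adjusted threshold, as was so for all genes (0% of 16046 by edgeR). At an unadjusted p of 0.05, 9 members were higher and 15 lower, that is 16.1% and 26.8% of the 56, where all genes gave 13.4% and 15.9%. The median over the members was -0.21, and the share of all counts they took, 0.247% to 0.275%, overlapped that of OE-MMP28. The difference from OE-MMP28 lay within a factor of 2 either way, by its 95% interval, for 45 of the 56.

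The 5 members with the smallest p were these. HERC5, the ISG15 ligase, stood at 2.44, 3.56 and 2.79 CPM with anti-IL-8, each below all 3 OE-MMP28 libraries (log2 fold change -1.06, SE 0.29, adjusted p 0.0627). PNPT1, at 29.4, 32.9 and 23.1 CPM in OE-MMP28, was at 18.1, 22.2 and 17.8 (-0.55, SE 0.15, 0.0627), also without overlap. PARP9 was at 24.3, 39.9 and 28.6 CPM (-0.58, SE 0.17, 0.0641) and SAMD9L at 9.53, 12.0 and 11.7 (-0.66, SE 0.21, 0.0695), and both overlapped OE-MMP28. PARP10 went the other way, from 48.7, 25.8 and 41.8 CPM to 52.1, 62.0 and 64.0 (0.61, SE 0.19, 0.0686). These differences did not pass the adjusted threshold in the main edgeR fit with every library in. All 5 passed it with DESeq2 and in the fit with no filter on low counts. The count of members called depended on the method, as did the share of all genes called in either direction. DESeq2 called 8 of the 51 members it gave an adjusted p (15.7%), against 23% of all genes, a lower share. The fit with no filter on low counts called 7 (12.3%) against 4.18% of all genes. Leaving out OE-MMP28 replicate 3 gave 20 (35.1%) against 25%, and leaving out anti-VEGFA replicate 2, a library that enters through the shared fit, gave 3 (5.26%) against 7.08%. With limma voom the count was 0. In the 20, 14 were lower and 6 higher, among them IFI6 (0.83), BST2 (0.68) and PARP10 (0.69) on the higher side.

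The OE-MMP28 libraries differed among themselves in the same members. Replicate 3 held the lowest OE-MMP28 value for 40 of the 56 members, among them RSAD2, HERC5, SAMD9, PARP14 and XAF1, and replicate 2 for 15, among them ISG15, IFI6, BST2, LY6E and PARP10. The first set had a median gene length of 6317 bases and the second of 2640. Across the 56 members the log2 difference of replicate 2 minus replicate 3 had a Pearson's r of 0.47 and a Spearman's rho of 0.39 with log2 gene length, a description of genes that share both libraries. Its part in the antibody comparisons was not tested.

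The third comparison asked the same of VEGFA neutralization. No member passed the adjusted threshold, where 0.343% of all genes did. At the unadjusted threshold 9 members were higher and 1 was lower (16.1% and 1.79%), against 10.4% and 8.44% of all genes, and the median was 0.12. SIGLEC1 was at 17.1, 13.8 and 9.12 CPM, above all OE-MMP28 libraries (log2 fold change 0.95, SE 0.22, adjusted p 0.0622). MX1 was at 52.1, 41.0 and 33.8 CPM, just above the highest OE-MMP28 library (0.78, SE 0.20, 0.0874). LY6E was at 65.1, 65.8 and 65.1 CPM, against 52.9, 33.0 and 50.6 in OE-MMP28 (0.52, SE 0.16, 0.115). IFI6, at 622, 595 and 759 CPM (0.62, SE 0.19, 0.122), and PARP10, at 62.0, 62.6 and 48.9 (0.58, SE 0.19, 0.141), were also above all libraries of OE-MMP28. The 1 member lower at the unadjusted threshold was APOL6 (-0.35, SE 0.15), named here after its values were seen. The interval of the difference stayed within a factor of 2 for 44 of the 56, and reached above it for 11. DESeq2 called 3 members (5.45%, against 2.96% of all genes in either direction) and the fit with no filter called 6 (10.5%, against 1.16%), all higher. Leaving out OE-MMP28 replicate 3 gave 3 calls (IFI6, LY6E and SIGLEC1), or 5.26%, below the 8.48% of all genes. Leaving out anti-VEGFA replicate 3 gave 1 (SIGLEC1), or 1.75% against 0.164%, and limma voom gave 0.

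Against control, most of the fall remained with either antibody. With anti-IL-8, 54 of 56 members were lower at the adjusted threshold, where 10.9% of all genes were, and with anti-VEGFA 54 were, where 5.37% were. The libraries of 56 members lay below the control libraries without overlap in each case, as did those of 24.4% and 17.4% of all genes. The median log2 fold change was -2.03 under IL-8 neutralization and -1.88 under VEGFA neutralization, beside -2.09 in OE-MMP28 alone. Without control replicate 2, 51 and 52 members were lower, in the same order. RSAD2 stood at 2.12, 3.56 and 1.69 CPM with anti-IL-8 (log2 fold change -6.12, SE 0.27, adjusted p 1.35e-10) and at 8.55, 5.14 and 5.28 with anti-VEGFA (-4.77, SE 0.25, 1.61e-09). CMPK2 stood at 5.34, 4.86 and 4.93 CPM with anti-IL-8 (-4.99, SE 0.24, 2.70e-10) and at 12.2, 9.40 and 6.77 with anti-VEGFA (-4.09, SE 0.23, 3.27e-09). TRIM22 had -3.85 (SE 0.22) and -3.19 (SE 0.21), and PNPT1 had -2.89 (SE 0.16) and -2.33 (SE 0.15), in the same order. MX1 with anti-IL-8 (-3.96, SE 0.22, 1.32e-09) and MX2 with anti-VEGFA (-3.02, SE 0.20, 1.97e-08) completed the 5 smallest p of each comparison. The members not called were SP140 and SHISA5 with anti-IL-8 and SP140 and IFI6 with anti-VEGFA. IFI6 and BST2, with -0.62 (SE 0.19) and -0.55 (SE 0.18) under anti-IL-8, were lost as calls when control replicate 1 or 2 or any 1 anti-IL-8 library was left out, and BST2 also without OE-MMP28 replicate 1. APOL3 was lost there without control replicate 1 or 2 or anti-IL-8 replicate 3. Under anti-VEGFA, BST2 and SHISA5 were lost without control replicate 1 or 2 or anti-VEGFA replicate 2, and BST2 also without anti-VEGFA replicate 1.

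The antibodies were also compared with each other, a comparison that uses neither control nor OE-MMP28 as an arm. No member passed the adjusted threshold, where 0.199% of all genes did. At the unadjusted threshold, 20 members were higher with anti-VEGFA than with anti-IL-8 and 1 was lower (35.7% and 1.79%), against 9.39% and 5.62% of all genes. RSAD2 had the smallest p, at 8.55, 5.14 and 5.28 CPM with anti-VEGFA against 2.12, 3.56 and 1.69 with anti-IL-8 (log2 fold change 1.35, SE 0.28, adjusted p 0.0519). HERC5 was at 8.44, 6.86 and 5.28 CPM against 2.44, 3.56 and 2.79 (1.22, SE 0.29, 0.0793), and SIGLEC1 at 17.1, 13.8 and 9.12 against 5.92, 8.90 and 6.81 (0.88, SE 0.22, 0.0915). MX1 stood at 52.1, 41.0 and 33.8 CPM against 24.2, 28.8 and 20.4 (0.79, SE 0.20, 0.102). CMPK2 had 0.90 (SE 0.24, 0.109). In all 5 the anti-VEGFA libraries lay above the anti-IL-8 libraries without overlap. The 1 lower member was TRIM21 (-0.35, SE 0.15), named after its values were seen. DESeq2 called 8 members (14.3%, against 1.67% of all genes in either direction) and the fit with no filter on low counts 11 (19.3%, against 0.804%), all higher with anti-VEGFA, and limma voom called 0. RSAD2 was called when replicate 2 of any of the OE-MMP28, anti-IL-8 or anti-VEGFA groups was left out, HERC5 when OE-MMP28 replicate 1 was, and RSAD2, HERC5 and SAMD9L when OE-MMP28 replicate 3 was. In these 5 fits 0.158% to 0.68% of all genes were called. The 95% interval of the difference stayed within a factor of 2 for 38 of the 56 members, and reached above it for 17.

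**Figure D5:**
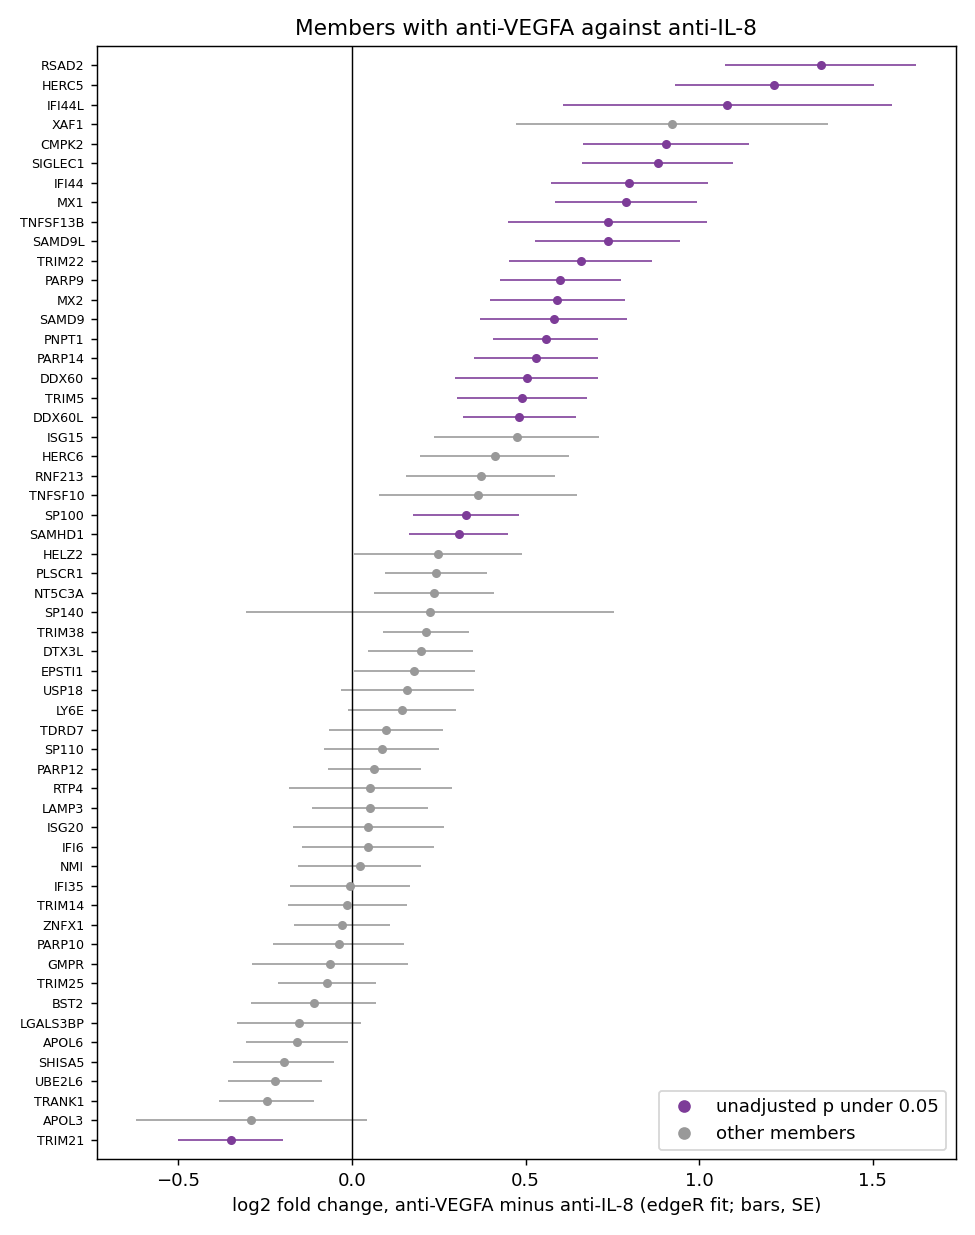
Log2 fold change of anti-VEGFA minus anti-IL-8 for the 56 tested members, sorted, with the SE of the edgeR fit as bars and the 21 members past an unadjusted p of 0.05 in purple. RSAD2, HERC5 and IFI44L lie farthest to the right, between 1.08 and 1.35, and TRIM21 is the 1 purple point to the left of 0.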

How the data were processed

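RNA from TAMs was measured in 4 groups of 3 libraries, grouped from the labels alone. The deposited gene counts were made by the authors with HISAT2 2.0.5 and featureCounts 1.5.0-p3 (submitters' processing notes), and the coordinates of all 57 members are those of GENCODE 29 (GRCh38). The FPKM values were deposited by the authors as well. Columns with the authors' own fold changes and p-values were not used. Counts were tested in R 4.3.3 with the quasi-likelihood test of edgeR 4.0.16, after filterByExpr (16046 genes kept) and TMM scaling. All 12 libraries were fitted together, with 1 coefficient per group and Benjamini-Hochberg adjustment over all genes tested. An unadjusted threshold of 0.05, the study's own, was counted too. Log2 fold changes use the default prior count of the edgeR fit. A prior count of 2 was used for the log2 CPM whose deviations were correlated between libraries. Intervals use 8 residual degrees of freedom, without the prior ones of edgeR, and are wider for it. Totals of 15852346 to 18701195 counts put 3 counts at no more than 0.189 CPM.

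Members and lists were chosen with earlier results of these data known, as was the rule for named genes: the 20 members that changed most in OE-MMP28 against control, the top 2 of role groups left out, paralogs, members not called, and the 5 smallest p elsewhere. Other members named were chosen after their values were seen. Alternatives were DESeq2 1.42.0, limma 3.58.1 (voom), other scalings and filters, log2 FPKM with pseudocounts of 0.1 and 1, fits of 2 groups, a replicate block and each library left out. The edgeR fit was tested on simulated data. Figures were drawn in Python 3.11.15 with matplotlib 3.10.9.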

Additional observations from a re-analysis of the deposited data

How the results depend on the processing

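The 3 comparisons against control kept their counts of lower members within 1.5 times under every alternative run. When libraries were left out one at a time, the counts were 51 to 55 in OE-MMP28, 51 to 55 with anti-IL-8 and 52 to 55 with anti-VEGFA. The comparisons between antibody and OE-MMP28 groups had 0 members called by edgeR, and this count depended on the setting. For anti-IL-8 against OE-MMP28 it was 8 with DESeq2, 7 with no filter on low counts, and 0 to 20 when libraries were left out one at a time. For anti-VEGFA against OE-MMP28 it was 3 with DESeq2, 6 with no filter, and 0 to 3 with a library left out. For anti-VEGFA against anti-IL-8 it was 8 with DESeq2, 11 with no filter, 1 with at least 10 counts required in every library, and 0 to 3 with a library left out. The cause was not tested. Among the medians of the members and the genes named by rule, no direction reversed under any alternative. The other members were not checked for reversal. Over all genes, calls for anti-IL-8 against OE-MMP28 went from 0 to 2259 with DESeq2, 1438 with no filter and 4125 without OE-MMP28 replicate 3. With a pseudocount of 1 on FPKM, the members' median against control moved to -1.66, -1.61 and -1.62.

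Deviations from the group means were correlated between libraries of different groups. With the same replicate number, the correlations were -0.16 to 0.24 (median 0.0023, 18 pairs). With different numbers, they were -0.32 to 0.34 (median -0.0128, 36 pairs). With 3 libraries a group, these correlations cannot tell whether the numbers pair the samples. With the replicate number as a block, members called were 55 in OE-MMP28 against control, 54 and 55 with anti-IL-8 and anti-VEGFA against control, 3 for anti-IL-8 (5.36%, near the 4.95% of all genes) and 0 for anti-VEGFA against OE-MMP28, and 1 (RSAD2, 1.79% against 0.162%) between the antibodies.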
